A study of Mus musculus with 24 samples.

Results

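Expression of 10 genes of the COMPASS family of histone methyltransferase complexes was followed across 24 RNA-seq libraries of mouse blood progenitors. The genes were Kmt2b, Kmt2c, Kmt2d, Kmt2e, Setd1a, Setd1b, Ncoa6, Paxip1, Ash2l and Wdr5, taken by their symbols out of the 55487 genes in the count table: the KMT2 family apart from Kmt2a, the SETD1 genes, and subunits shared by the complexes or specific to the MLL3/4 complexes. All 10 were among the 23059 genes that passed the filter on low counts. The libraries came from 6 groups of 4. Liver cells taken on the day of birth (P0) gave a wild-type group (P0 WT) and a group expressing the human fusion gene MLL::ENL (ME) from a Tet-off transgene since embryonic day E10.5 (P0 ME). Bone marrow taken 28 days after birth (P28) gave a wild-type group (P28 WT), a group with the transgene on since E10.5 (E10.5-induced ME) and one with it on since birth (P0-induced ME). The remaining P28 group, also from bone marrow and also with ME induced at E10.5, carries the label RLT Vav Txp, which is not expanded (RLT group). The promoter that drives the Tet-off system, the strain, and whether the wild-type mice carry any allele of it are not given in the sources used here. Age and tissue changed together, so that an age difference and a difference between liver and marrow cannot be told apart.

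COMPASS complexes methylate lysine 4 of histone H3, a mark of promoters and enhancers. Each holds 1 catalytic subunit. KMT2C (MLL3) and KMT2D (MLL4) act mainly at enhancers, where they place the monomethyl mark. KMT2A (MLL1) and KMT2B (MLL2) act at subsets of promoters, and SETD1A and SETD1B account for much of the trimethyl mark at active promoters. KMT2E (MLL5) has a divergent SET domain and is a chromatin reader more than a methyltransferase. WDR5 and ASH2L belong to the core that the catalytic subunits share, while NCOA6 and PAXIP1 (PTIP) are found in the MLL3/4 complexes. The MLL::ENL fusion joins the amino-terminal part of KMT2A to ENL and lacks the SET domain of KMT2A, and KMT2C is known as a tumour suppressor in myeloid leukaemia.

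Library totals ran from 31233688 to 89774511 counts, and each member had at least 176 counts in each library. The labels call the cells LSK and the design text calls them lineage-negative KIT-positive, so the LSK markers were checked first. All 10 genes of the LSK list were detected in every group, the sum being 4641 to 5770 CPM (read counts relative to the TMM-scaled library total) in the 12 P28 libraries outside the RLT group. The sum was lower in the RLT group (2413 to 3397 CPM) and reached 2391 CPM in P0 WT. Markers of other cells were present at P0. The neutrophil list summed to a median of 13693 CPM in P0 WT and of 26386 CPM for P0 ME, against at most 1775 in P28 WT and both P28 ME groups outside the RLT group, and the erythroid list to a median of 12528 and 6485 CPM against at most 692. In the RLT group the macrophage list summed to 740 to 3242 CPM, with all 10 of its genes above 1 CPM, against 76.7 to 111 in P28 WT. Its neutrophil (2009 to 6488 CPM), erythroid (967 to 1950 CPM) and mast cell (78.9 to 196 CPM) sums did not overlap those of P28 WT either (693 to 914, 422 to 548 and 7.90 to 31.9 CPM). The same held for its hepatocyte (279 to 718 against 226 to 249 CPM) and B lymphoid sums (95.4 to 110 against 56.3 to 92.1 CPM). P0 WT library 4 stood apart from the other P0 WT libraries, with 169 CPM of Kit against 616 to 1451. The hepatocyte list had all 8 of its genes above 1 CPM in both P0 groups and 3 in the RLT group. It had 2 above 1 CPM in P28 WT and in both P28 ME groups outside the RLT group, and Alb was at 0 in all 4 E10.5-induced libraries. The mast cell list summed to 923 to 10690 CPM in P0 WT, to 47.7 to 815 CPM in P0 ME, below each P0 WT library, and to at most 34.2 in those 3 P28 groups, and the B lymphoid list to 56.3 to 642 CPM across all groups outside the RLT group. The P0 libraries numbered 1, of WT and of ME, had low sums of the neutrophil (890 and 832 CPM), erythroid (601 and 264 CPM) and macrophage (141 and 129 CPM) lists. The part of other cells in the members' values was not tested. In sorted bulk samples fewer cells of a type and less RNA per cell cannot be told apart. The labels speak of biological replicates, without saying which mice or litters they came from.

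The members differed widely in abundance per length of their exons. Averaged over the 24 libraries, the core subunit Wdr5 was highest at 31.0 CPM per kb of exons, followed by Ash2l at 15.8 and Kmt2e at 12.2. The MLL3/4 partners came next, Paxip1 at 6.76 and Ncoa6 at 3.52 CPM per kb. The catalytic subunits were lower and close together, with 2.03 CPM per kb for Kmt2b, 1.77 for Kmt2c and 1.70 for Kmt2d, then 1.05 for Setd1a and 0.752 for Setd1b. Group means of Kmt2b (1.41 to 2.74 CPM per kb), Kmt2c (1.28 to 2.42) and Kmt2d (1.25 to 2.21) covered much the same range, so these neighbours are not separated beyond their spread. In P28 WT alone Ash2l (13.3 ± 0.908 CPM per kb, SD, n = 4) and Kmt2e (13.0 ± 1.58) did not differ beyond their spread either, nor did Setd1a (1.04 ± 0.221) and Setd1b (0.894 ± 0.211). By this measure Wdr5 stood at the 89.6th percentile of the genes tested and Setd1b at the 36th.

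**Figure D1:**
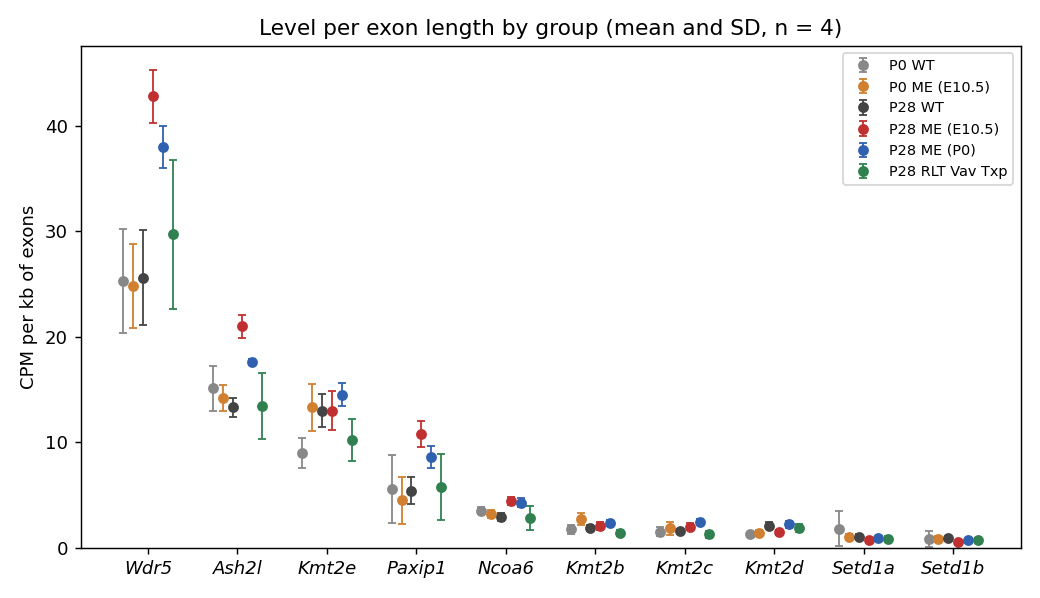
Mean level of each member in CPM per kb of exons (y axis), with 1 point per group and bars of 1 SD over the 4 libraries. The core subunits Wdr5 and Ash2l lie above the catalytic subunits in every group, and the SETD1 genes lie lowest, except that the P0 WT mean of Setd1a (1.81) carries 1 library far above the others.

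On GRCm38, with GENCODE M21 gene models, 4 of the 10 members lie on chromosome 5. These are Kmt2c (25271798 to 25498783, minus strand), Kmt2e (23434441 to 23504235, plus strand), Paxip1 (27740080 to 27791691, minus strand) and Setd1b (123142193 to 123168629, plus strand). Kmt2d is on chromosome 15 (98831669 to 98871204, minus strand), Kmt2b and Setd1a are on chromosome 7 (30568858 to 30588726, minus strand, and 127776670 to 127800122, plus strand). Ncoa6 and Wdr5 are on chromosome 2 (155390656 to 155473894, minus strand, and 27515157 to 27536535, plus strand), and Ash2l is on chromosome 8 (25815996 to 25847694, minus strand). Kmt2e shares bases with Srpk2 on the other strand, which had group means of 49.9 to 81.6 CPM. As the strand setting of the counting is not stated, reads of the shared stretch cannot be told apart.

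The start regions of 3 members are shown: Kmt2c and Kmt2d, the paired enhancer methyltransferases, and Wdr5, a core subunit. A link between these sequences and the expression values was not tested. Each is the 250 bases before the RefSeq start (GRCm38.p6), read 5′ to 3′ along the gene's strand. Capitals mark matches, on either strand, to the 7 motifs searched: the GC box (GGGCGG), the CCAAT box, the ETS motif (CCGGAAG), the YY1 motif (AAGATGGC), the CRE (TGACGTCA), the E-box (CACGTG) and the NRF1 motif. In these 3 windows all matches are GC boxes, some of them running into each other.
Kmt2c (chr5:25498784-25499033, minus strand): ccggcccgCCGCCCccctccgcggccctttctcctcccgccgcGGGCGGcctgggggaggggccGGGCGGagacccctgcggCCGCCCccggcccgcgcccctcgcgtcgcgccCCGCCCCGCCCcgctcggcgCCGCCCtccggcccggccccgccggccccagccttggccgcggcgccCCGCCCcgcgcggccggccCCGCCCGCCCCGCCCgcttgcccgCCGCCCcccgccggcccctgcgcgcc
Kmt2d (chr15:98871206-98871455, minus strand): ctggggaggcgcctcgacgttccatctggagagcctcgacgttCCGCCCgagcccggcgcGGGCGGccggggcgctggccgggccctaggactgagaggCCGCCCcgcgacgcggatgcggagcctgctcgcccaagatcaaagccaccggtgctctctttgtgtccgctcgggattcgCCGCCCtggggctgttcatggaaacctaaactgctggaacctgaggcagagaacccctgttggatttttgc
Wdr5 (chr2:27514897-27515146, plus strand): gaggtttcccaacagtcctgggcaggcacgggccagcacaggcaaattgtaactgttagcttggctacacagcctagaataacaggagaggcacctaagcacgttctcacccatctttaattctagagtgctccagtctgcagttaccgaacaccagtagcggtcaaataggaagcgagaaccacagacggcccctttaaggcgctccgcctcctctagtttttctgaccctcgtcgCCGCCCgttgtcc
The Kmt2c window is 91.6% G or C, and none of the 32851 RefSeq promoter windows of this length had a higher share. It holds 48 CpG and 12 GC boxes. The Kmt2d window is 67.6% G or C with 26 CpG and 4 GC boxes, and the Wdr5 window is 54.4% G or C with 12 CpG and 1 GC box, where the median of all windows was 52.4% and 6 CpG. A GC box occurs in 32.74% of all windows, the CCAAT box in 33.85%, the ETS motif in 6.91%, the E-box in 6.02%, the YY1 motif in 1.56%, the CRE in 1.55% and the NRF1 motif in 0.78%. Of the 6 members with a window in the table, Paxip1 alone held an NRF1 match (1 match, with 2 GC boxes), and Setd1a and Ncoa6 held none of the 7 motifs. The windows of Setd1a (chr7:127777139-127777388) and Ncoa6 (chr2:155440784-155441033) lie inside the GENCODE gene spans, so they need not be the main start regions. A match is a description of the letters and no evidence of binding.

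All 24 libraries entered 1 edgeR quasi-likelihood fit, and the word called is kept for genes whose p, adjusted by Benjamini-Hochberg over the 23059 genes, was under 0.05. Of the 100 pairs of a member and a comparison, 13 were called, and they covered 7 members. Of all genes tested, 0.0477% to 18.2% were called, depending on the comparison. Setd1a, Setd1b and Paxip1 were called in none of the 10 comparisons.

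At P0, 5 of the 10 members had a positive log2 fold change in ME against WT and 5 a negative one, with a median of -0.01, the same as that of all genes tested. By edgeR 0 members were called, where 0.642% of the genes tested were. The DESeq2 Wald test called 2 members (Kmt2b and Kmt2e, both higher) and 3.49% of all genes, and limma voom called 0 members and 0.0781% of all genes. An unadjusted p under 0.05 was reached by 3 members, against 14.1% of the genes tested: Kmt2e at 0.57 (SE 0.16, edgeR adjusted p = 0.0998), Kmt2b at 0.65 (SE 0.21, edgeR adjusted p = 0.159) and Setd1a at -0.88 (SE 0.41, edgeR adjusted p = 0.333). Without P0 WT library 4 the Setd1a value was -0.02. Among the other COMPASS subunits and partners only Kmt2a was called, as 1 of 13 tested. Kmt2a, the parent gene of the fusion, had 27.3 ± 8.64 CPM in P0 WT, while P0 ME had 91.5 ± 10.9 CPM (SD, n = 4). The log2 fold change was 1.74 (edgeR adjusted p = 4.16e-06). At P28 it had 41.6 ± 4.51 CPM in WT, 97.9 ± 6.48 after induction at P0 and 56.4 ± 2.12 after induction at E10.5, which was not called (0.44, edgeR adjusted p = 0.0975). The RLT group, labelled as carrying ME, had 45.5 ± 5.87 CPM of Kmt2a and did not pass against P28 WT either (0.13, edgeR adjusted p = 0.836). The human transgene is not a row of the table. Whether its reads were counted as mouse Kmt2a is not known, so mouse Kmt2a and the fusion cannot be told apart in these values.

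At P28 after induction at E10.5, the core subunits Ash2l and Wdr5 and the MLL3/4 partner Ncoa6 were higher than in WT. In this comparison 3 of 10 members were called, all of them higher, where 12.3% of the genes tested were called and 7.82% were called higher. Groups did not overlap for 5 members, against 28.2% of the genes tested. The members had a median log2 fold change of 0.26, all genes one of -0.10, and the members ranged from -0.81 for Setd1b to 1.00 for Paxip1. After induction at P0, edgeR called 0 members against the same WT libraries, where 1.57% of the genes tested were called. The DESeq2 test called 1 (Wdr5), with 7.71% of all genes, and limma voom 4 (Kmt2c, Ncoa6, Ash2l and Wdr5, all higher), with 21.7% of all genes. An unadjusted p under 0.05 was reached by these same 4 members in edgeR, against 20.2% of the genes tested, and groups did not overlap for 7 members, against 24.8%. The members' median was 0.37, that of all genes -0.09 and that of the genes with long transcripts 0.41. Both comparisons share the P28 WT libraries.

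Set against each other, the 2 induction times gave 0 called members by edgeR, where 0.0477% of the genes tested were called, and 0 by DESeq2. Limma voom called 2, Kmt2d higher and Ash2l lower after P0 induction, and 10.1% of all genes. Kmt2d alone had an unadjusted p under 0.05, which 4.33% of the genes tested reached. Groups did not overlap for 4 members, against 11.8% of the genes tested: Kmt2d, Setd1a and Setd1b were higher and Ash2l was lower after P0 induction. Whether the E10.5 effect differed between P28 and P0 was tested as an interaction. By edgeR 0 members passed, against 0.720% of the genes tested, while 5 had an unadjusted p under 0.05, against 16.5%. DESeq2 called 1 (Ash2l) with 3.36% of all genes, and limma voom 2 (Ash2l and Wdr5) with 2.82%. Ash2l came nearest in the edgeR fit, with an interaction of 0.75 (SE 0.20, edgeR adjusted p = 0.0658), and without P0 WT library 4 it was 0.82 (edgeR adjusted p = 0.0171). Without that library 4 members passed, among them Ash2l, Wdr5 (0.93) and Paxip1 (1.70), while the count over all genes went from 166 to 1653. The remaining member was Kmt2b, Setd1a or Setd1b, and its direction in that fit is not given here. With that library kept, the interactions of these genes were -0.50, 0.35 and -0.83.

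For the RLT group, 0 members were called against P28 WT by edgeR, DESeq2 or limma voom, where edgeR called 4.12% of the genes tested. One unadjusted p fell under 0.05, that of Kmt2e, against 15.3% of the genes tested. Against E10.5-induced ME, 3 members were lower in the RLT group, the same Ash2l, Ncoa6 and Wdr5 that were higher in E10.5-induced ME than in WT. That comparison called 17.9% of the genes tested, 9.38% as lower, and shares the E10.5-induced libraries with the one above. Groups did not overlap for 2 members (Ash2l and Kmt2c, both lower in the RLT group), against 25.7% of the genes tested. Against P0-induced ME, 3 other members were called lower, Kmt2c, Kmt2b and Kmt2e, where 11.7% of the genes tested were called and 4.90% were lower. Kmt2c and Kmt2b were the 2 members whose groups did not overlap there, against 24.3% of the genes tested.

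Between P0 and P28, different members were called in WT and in ME. In WT, 2 members (Kmt2d and Kmt2e) were higher at P28, where 7.68% of the genes tested were called and 3.12% were higher. The same 2 members had groups that did not overlap, against 9.27% of the genes tested. In E10.5-induced ME, 2 members (Wdr5 and Ash2l) were higher at P28, where 18.2% of the genes tested were called and 9.79% were higher. Groups did not overlap for 4 members, against 25.4% of the genes tested, the others being Ncoa6 and Paxip1. The values behind these counts follow by the role of each gene.

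**Figure D2:**
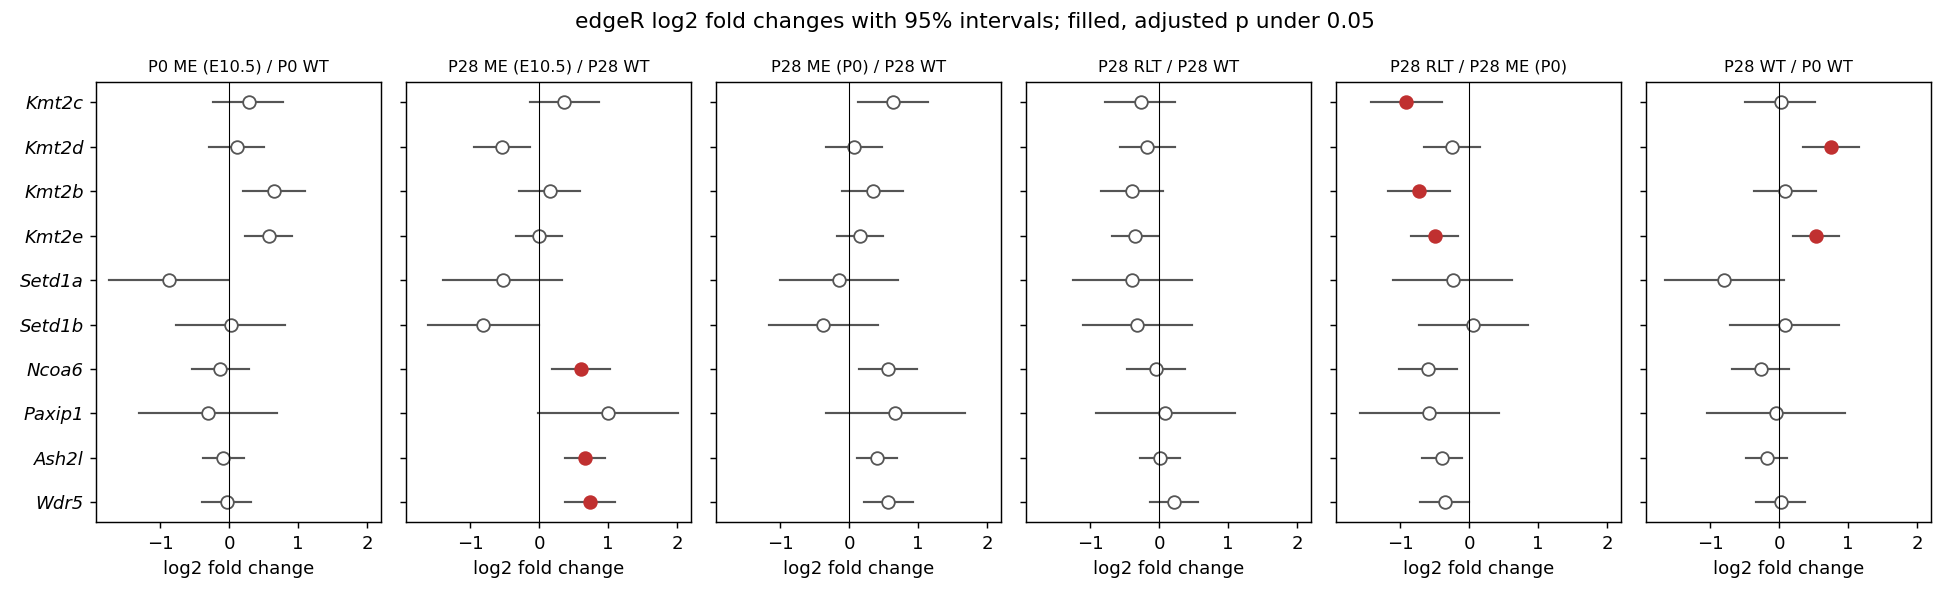
Log2 fold changes (x axis) of the 10 members in 6 of the 10 comparisons, from the edgeR fit of 24 libraries; bars are 95% intervals and filled points passed an adjusted p of 0.05. Filled points appear to the right for Ncoa6, Ash2l and Wdr5 in E10.5-induced ME against WT and for Kmt2d and Kmt2e in WT with age, and to the left for Kmt2c, Kmt2b and Kmt2e in the RLT group against P0-induced ME.

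Kmt2c, which encodes MLL3, had its highest levels in P0-induced ME. Its 4 P28 WT libraries gave 34.6, 24.4, 33.2 and 33.7 CPM, and those of P0-induced ME gave 53.8, 50.4, 50.9 and 41.0 CPM. Each P0-induced library was above each WT library. The log2 fold change was 0.64 (95% interval 0.13 to 1.15, edgeR adjusted p = 0.134), which did not pass over all genes. It passed in 4 of 13 alternatives, such as limma voom (0.64, adjusted p = 0.0136), and fell to 0.31 with GC content and length offsets (edgeR adjusted p = 0.502). In E10.5-induced ME the libraries gave 45.3, 34.3, 48.5 and 33.9 CPM and overlapped those of WT, with a log2 fold change of 0.36 (interval -0.14 to 0.87, edgeR adjusted p = 0.348). With offsets for GC content and length this fell to 0.08.

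The lowest group mean of Kmt2c was that of the RLT group, whose libraries gave 33.7, 28.7, 24.6 and 17.1 CPM. All 4 lay below the P0-induced libraries, at -0.91 in log2 units (SE 0.24, edgeR adjusted p = 0.0158). It was the largest change among the called pairs of a member and a comparison. The call was lost without RLT library 3 (-0.89, edgeR adjusted p = 0.0526), without RLT library 4 (-0.75, edgeR adjusted p = 0.0778) and with GC content and length offsets (-0.57, edgeR adjusted p = 0.0561). It was kept in 10 of 11 alternatives and in 6 of 8 fits without 1 library. At P0, Kmt2c ranged from 23.9 to 40.4 CPM in WT and from 21.6 to 50.1 in ME, a spread that covers all P28 WT libraries. Its WT difference with age was 0.02 (interval -0.49 to 0.52), and its sign changed with GC content and length offsets (-0.02) and without P0 WT library 4 (-0.10).

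Kmt2d, which encodes MLL4, rose with age in WT. The P0 WT libraries gave 25.8, 23.1, 29.0 and 21.7 CPM, and the P28 WT libraries gave 43.3, 33.5, 42.3 and 48.6 CPM. No P28 value was as low as the highest P0 value, and the log2 fold change was 0.75 (SE 0.19, edgeR adjusted p = 0.0159). The call was lost without P0 WT library 2 (0.73, edgeR adjusted p = 0.0527), P0 WT library 4 (0.68, edgeR adjusted p = 0.0506) or P28 WT library 4 (0.67, edgeR adjusted p = 0.0619), in limma voom (0.77, adjusted p = 0.0723) and with only the WT groups fitted (0.77, edgeR adjusted p = 0.103). In ME no such rise was called: P0 ME gave 29.8, 28.5, 30.6 and 18.4 CPM and E10.5-induced ME at P28 gave 23.7, 26.5, 34.9 and 30.1 CPM. The log2 fold change with age in ME was 0.10 (interval -0.30 to 0.50). The difference between the ME and WT age changes, which is the interaction, was -0.65 (SE 0.27, edgeR adjusted p = 0.225) and passed in none of the 12 alternatives.

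At P28, Kmt2d in E10.5-induced ME was 28.8 ± 4.85 CPM against 41.9 ± 6.27 in WT (SD, n = 4). The log2 fold change was -0.54 (interval -0.95 to -0.14, edgeR adjusted p = 0.0643), just outside the threshold. It passed in 9 of 13 alternatives, among them RLE scaling (-0.62, edgeR adjusted p = 0.0377), DESeq2 (-0.62, adjusted p = 0.0131) and GC content and length offsets (-0.86, edgeR adjusted p = 0.00578), and in 0 of the 8 fits that left out 1 library. P0-induced ME, with 49.9, 43.7, 47.6 and 35.4 CPM, lay above each E10.5-induced library and overlapped WT. The direct difference between the induction times was 0.62 (SE 0.19, unadjusted p = 0.00359, edgeR adjusted p = 0.71). Adjusted p ran from 0.0011 in limma voom to 0.984 over the 13 alternatives. The RLT libraries gave 36.5, 30.4, 34.1 and 47.8 CPM and overlapped WT.

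**Figure D3:**
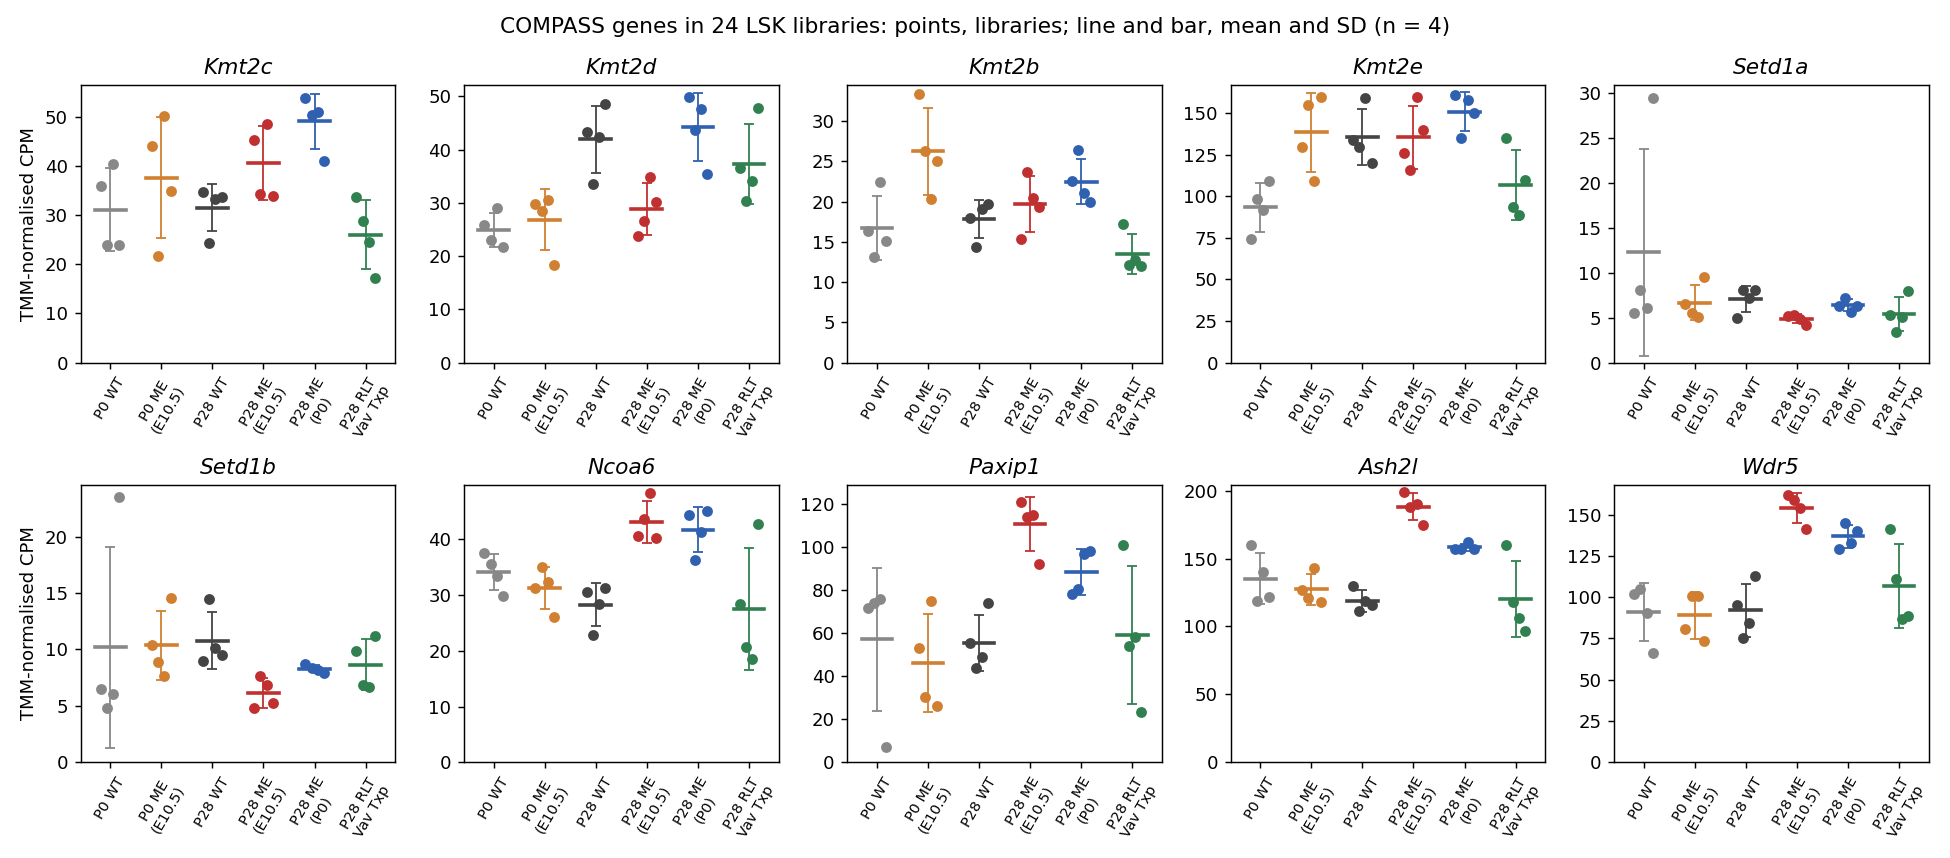
Level of each member in TMM-normalised CPM (y axis, from 0) in the 24 libraries by group; points are libraries, lines and bars the mean and SD of 4. Ash2l and Wdr5 sit above P28 WT in all 8 libraries of the E10.5-induced and P0-induced P28 ME groups, Kmt2d sits low in both P0 groups and in E10.5-induced ME, and single libraries stand apart for Setd1a, Setd1b and Paxip1 in P0 WT.

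The balance of the paired enhancer methyltransferases differed between the groups. The ratio of Kmt2c to Kmt2d counts within a library needs no scaling between libraries and was 0.799, 0.729, 0.785 and 0.693 in P28 WT. P0-induced ME gave 1.08, 1.15, 1.07 and 1.16. E10.5-induced ME gave 1.91, 1.30, 1.39 and 1.13. All 8 of these ME libraries were above 1 and all P28 WT libraries below it. The RLT group gave 0.924, 0.943, 0.722 and 0.359, all below 1. A ratio above 1 was not confined to ME, since the P0 WT libraries gave 1.39, 1.04, 1.39 and 1.10. At P0 the mean ratio was 1.23 ± 0.189 in WT and 1.44 ± 0.485 in ME (SD, n = 4), with 1 ME library at 0.758. The 2 induction times reached a ratio above 1 by unlike levels: Kmt2d was 44.1 ± 6.39 CPM in P0-induced ME and 28.8 ± 4.85 in E10.5-induced ME, while Kmt2c was 49.0 ± 5.55 and 40.5 ± 7.52 CPM. The ratio is a description, chosen after values were seen, and was not tested. Kmt2c transcripts have 47.6% G or C and those of Kmt2d 58.4%, so that a library's bias for GC content bears on it, and this was not tested on the ratio.

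**Figure D4:**
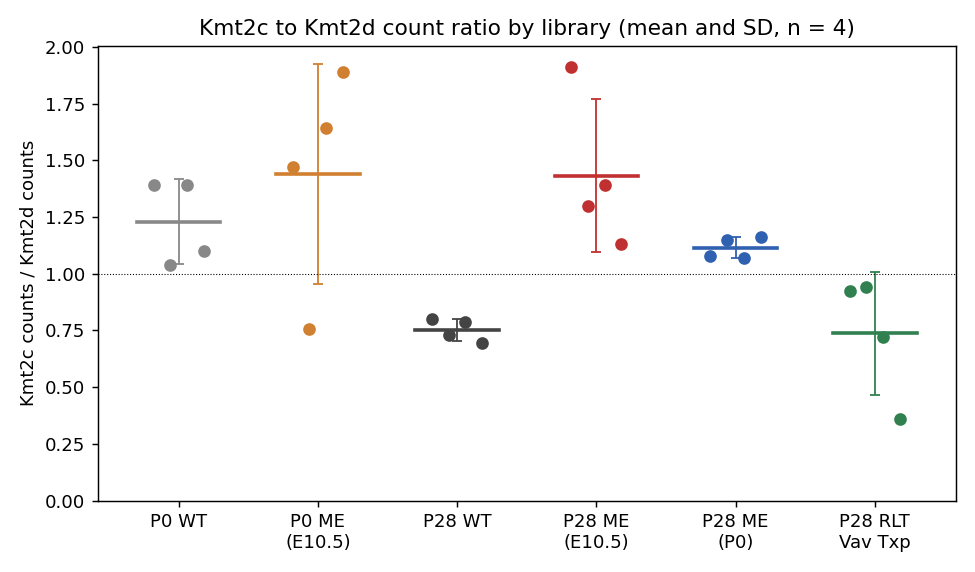
Ratio of Kmt2c to Kmt2d counts (y axis, no unit) in each library by group, with the mean and SD of 4; the dotted line marks equal counts. The P28 WT libraries (0.693 to 0.799) and the RLT libraries (0.359 to 0.943) lie below it, and the E10.5-induced (1.13 to 1.91) and P0-induced (1.07 to 1.16) libraries lie above it. The P0 WT libraries (1.04 to 1.39) also lie above it, and those of P0 ME (0.758 to 1.89) lie on both sides.

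Kmt2c and Kmt2d were not among the genes most like each other across the 24 libraries. Likeness was measured as the mean absolute difference of centred log2 CPM, where the median of 9689 candidate genes was 0.421 from Kmt2c. Kmt2d stood at 0.405 from Kmt2c, at rank 4397. Seen from Kmt2d, where the median of the candidates was 0.446, Kmt2c stood at rank 3154. The genes most like Kmt2c were Nr2c2 (0.17), Prrc2b (0.185), Pskh1 (0.189), Sidt2 (0.189) and Arhgap25 (0.195). Those most like Kmt2d were Oxsm (0.191), Zbtb38 (0.192), Spen (0.199), Mr1 (0.222) and Selenon (0.224). Among the other members Ash2l was nearest to Kmt2c (0.268, rank 367) and Kmt2e was nearest to Kmt2d (0.331, rank 739). All candidates come from the same libraries and share their depth and composition.

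Ncoa6, a coactivator subunit of the MLL3/4 complexes, was higher than WT at P28 after induction at E10.5. Its P28 WT libraries gave 30.6, 22.9, 28.3 and 31.3 CPM, those of E10.5-induced ME 40.5, 43.6, 48.2 and 40.2 CPM, and those of P0-induced ME 44.3, 36.2, 41.3 and 45.0 CPM. Neither ME group overlapped WT. The E10.5 log2 fold change was 0.61 (SE 0.20, edgeR adjusted p = 0.0455) and the P0 value was 0.56 (SE 0.20, edgeR adjusted p = 0.117), so only the former was called. The P0 value passed in 4 of 13 alternatives and was 0.11 with GC content and length offsets (edgeR adjusted p = 0.892). The E10.5 call was kept in 7 of 13 alternatives and in 0 of the 8 fits that left out 1 library, whose adjusted p ran from 0.0524 without P28 WT library 4 to 0.229 without P28 WT library 2 (0.47). It ended with GC content and length offsets, at 0.08 (edgeR adjusted p = 0.87).

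The RLT libraries of Ncoa6 gave 28.3, 20.7, 18.5 and 42.7 CPM, with the last at the level of E10.5-induced ME. Against E10.5-induced ME the log2 fold change was -0.65 (SE 0.20, edgeR adjusted p = 0.0267), and 4 of the 8 fits without 1 library lost it: without E10.5-induced library 2 (edgeR adjusted p = 0.0607) or 3 (0.0834), and without RLT library 2 (0.103) or 3 (0.116). The offsets brought it to -0.18 (edgeR adjusted p = 0.636). Against P0-induced ME it was -0.60 (edgeR adjusted p = 0.0514), and without RLT library 4 it was -0.89 (edgeR adjusted p = 0.00465).

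Paxip1, the other MLL3/4 partner, varied widely between libraries, with a biological coefficient of variation in the edgeR fit of 46.3%, against 15.8% for Ash2l. It averaged 55.5 ± 13.2 CPM in P28 WT, and 111 ± 12.6 and 88.3 ± 10.6 CPM after induction at E10.5 and at P0 (SD, n = 4), and neither ME group overlapped WT. The log2 fold changes were 1.00 (interval -0.02 to 2.01, edgeR adjusted p = 0.192) and 0.67 (SE 0.48, edgeR adjusted p = 0.463). Outside these groups the libraries scattered: P0 WT gave 71.6, 73.9, 75.7 and 7.23 CPM, P0 ME 53.3, 30.3, 75.0 and 26.1, and the RLT group 101, 54.1, 58.0 and 23.5. The shared estimate of spread therefore rests on P0 and RLT libraries that vary more than the groups compared. The value after E10.5 induction passed in 4 of 13 alternatives, and GC content and length offsets brought it to 0.50 (edgeR adjusted p = 0.475). With only the 2 P28 groups in the fit, the value after E10.5 induction was 0.91 (edgeR adjusted p = 0.000373), and with P0 WT library 4 and RLT library 4 left out it was 0.98 (edgeR adjusted p = 0.0101).

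Ash2l, a subunit of the shared core, was called in 3 comparisons, and each of these calls was kept in every fit that was run. The P28 WT libraries gave 130, 111, 119 and 116 CPM, and E10.5-induced ME gave 199, 188, 190 and 175 CPM. Every ME value exceeded every WT value, by 0.66 in log2 units (SE 0.14, edgeR adjusted p = 0.00483). P0-induced ME lay between them at 157, 157, 162 and 157 CPM, or 0.41 over WT in log2 units (SE 0.14, edgeR adjusted p = 0.101). Against E10.5-induced ME this was -0.25 (interval -0.54 to 0.04), with no overlap between the groups. The E10.5 call was kept in all 13 alternatives and in all 8 fits without 1 library, where its log2 fold change ran from 0.57 to 0.70.

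The level of Ash2l in P0 ME was 127, 121, 143 and 118 CPM, below each P28 library of E10.5-induced ME. The increase with age in ME was 0.56 (SE 0.14, edgeR adjusted p = 0.00647), whereas in WT the change was -0.18 (interval -0.48 to 0.11). The interaction, 0.75 (SE 0.20, edgeR adjusted p = 0.0658), was not called. In the RLT group the libraries gave 160, 118, 106 and 96.5 CPM, again below each E10.5-induced library, a difference of -0.65 (SE 0.14, edgeR adjusted p = 0.0029). Both of these calls were kept in all alternatives (12 and 11) and in the 8 fits each that left out 1 library. Against WT the RLT group differed by 0.01 (interval -0.28 to 0.30) for Ash2l.

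Wdr5, the WD-repeat subunit of the same core, followed a like course. It gave 95.1, 75.3, 84.6 and 113 CPM in P28 WT, then 162, 159, 154 and 141 CPM after E10.5 induction, and 129, 145, 133 and 140 in P0-induced ME. All 8 ME libraries were above the highest WT library. The E10.5 log2 fold change was 0.74 (SE 0.17, edgeR adjusted p = 0.00739), kept in all 13 alternatives and lost in 1 of 8 fits without 1 library, that without P28 WT library 2 (0.60, edgeR adjusted p = 0.0611). The P0-induced value was 0.57 (SE 0.17, edgeR adjusted p = 0.0681) and passed in 6 of 13 alternatives, with DESeq2 among them (0.51, adjusted p = 0.0408), and without P28 WT library 4 (0.69, edgeR adjusted p = 0.0441). With age, Wdr5 increased by 0.79 in ME (SE 0.17, edgeR adjusted p = 0.00238), in each alternative and each fit without 1 library, and by 0.02 in WT (interval -0.34 to 0.37). The difference between these age changes, which is the interaction, was 0.77 (SE 0.24, edgeR adjusted p = 0.11) and was not called. The RLT libraries gave 141, 111, 87.0 and 88.4 CPM, which against E10.5-induced ME is -0.52 in log2 units (SE 0.17, edgeR adjusted p = 0.0338). That call was lost in 5 of 11 alternatives and in 6 of 8 fits without 1 library, where the adjusted p reached 0.172 without RLT library 4 (-0.41). The other 5 fits that lost it left out E10.5-induced library 1 (-0.53), 2 (-0.51) or 3 (-0.53), or RLT library 2 (-0.55) or 3 (-0.44).

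Kmt2e, the divergent family member, rose with age in WT. P0 WT gave 74.2, 98.7, 91.9 and 109 CPM, and P28 WT gave 134, 130, 159 and 120 CPM, without overlap. Its log2 fold change with age in WT was 0.54 (SE 0.16, edgeR adjusted p = 0.0383). The call was kept in 7 of 12 alternatives and in 2 of 8 fits without 1 library, those without P0 WT library 4 or P28 WT library 4. Leaving out P28 WT library 3 (0.45, edgeR adjusted p = 0.14), P0 WT library 1 (0.44, edgeR adjusted p = 0.102), 2 (0.57) or 3 (0.55), or P28 WT library 1 (0.55) or 2 (0.57) ended it. P0 ME, at 139 ± 23.5 CPM, and E10.5-induced ME at P28, at 135 ± 19.3 CPM, did not differ beyond their spread (log2 fold change -0.04, interval -0.37 to 0.30). The difference between the ME and WT age changes was -0.57 (SE 0.23, edgeR adjusted p = 0.203) and was not called. In the RLT group Kmt2e was 135, 93.3, 88.5 and 110 CPM against 161, 135, 158 and 150 in P0-induced ME, which is -0.50 in log2 units (SE 0.16, edgeR adjusted p = 0.0427). Only the fit without RLT library 1 (-0.64) kept this call among 8 that left out 1 library, and the offsets reduced it to -0.20 (edgeR adjusted p = 0.682). The edgeR adjusted p in the other 7 fits ran up to 0.154, without RLT library 3 (-0.42).

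Kmt2b, which encodes the promoter methyltransferase MLL2, reached 33.4, 26.3, 20.3 and 25.0 CPM in P0 ME. P0 WT gave 16.4, 13.1, 22.4 and 15.1 CPM, so the groups overlapped in 1 library of each. Its RLT values were 17.2, 12.1, 12.8 and 12.0 CPM, all below the 22.6, 26.4, 21.1 and 19.9 CPM of P0-induced ME. The difference was -0.73 in log2 units (SE 0.21, edgeR adjusted p = 0.0268). It passed in 8 of 11 alternatives and in 3 of 8 fits without 1 library. The 5 that lost it left out P0-induced library 1 (edgeR adjusted p = 0.0604) or 2 (0.0905), or RLT library 2 (0.0809), 3 (0.0786) or 4 (0.0994), and GC content and length offsets reduced the value to -0.07 (edgeR adjusted p = 0.914). Among the members Kmt2b has the highest GC content, 59.1%.

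The SETD1 genes were the least abundant members and were called nowhere. Setd1a ranged from 4.92 to 8.10 CPM in P28 WT and from 4.23 to 5.34 in E10.5-induced ME. Setd1b gave 8.97, 14.5, 10.1 and 9.54 CPM in P28 WT, above each library of E10.5-induced ME (4.79, 7.65, 6.87 and 5.24). The log2 fold change was -0.81 (SE 0.38, edgeR adjusted p = 0.169), and it passed in 4 of 13 alternatives, such as the fit of the 16 P28 libraries (-0.83, edgeR adjusted p = 0.015). P0 WT library 4 gave 29.5 CPM of Setd1a and 23.5 of Setd1b, where the other P0 WT libraries gave 5.55 to 8.09 and 4.77 to 6.48. The same library held the lowest Paxip1 value of all 24.

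Genes with long transcripts moved as a class in these comparisons, while the members with long transcripts went both ways. Of the 10 members 8 have a longest transcript of at least 5850 bases, at or above the 89.8th percentile of the genes tested. Restricted to genes whose mean log2 CPM reached 3, the 2175 whose longest transcript has 5000 bases or more had a median log2 fold change of 0.49 in E10.5-induced ME against WT, and 29.9% were called higher. The 8070 shorter genes had a median of 0.11. Among the members with long transcripts, Paxip1 (1.00), Ncoa6 (0.61), Kmt2c (0.36) and Kmt2b (0.15) had positive values in E10.5-induced ME against WT. Kmt2e was at 0, and Setd1a (-0.53), Kmt2d (-0.54) and Setd1b (-0.81) had negative values. For the RLT group against E10.5-induced ME the long genes had a median of -0.48 and 30.4% were called lower, and against P0-induced ME they had -0.38 and 15.3%. Ash2l (3702 bases) and Wdr5 (2890 bases), whose E10.5 calls were kept with offsets for GC content and length, are the 2 members below that length. With these offsets 6 of the 13 calls were lost. The part of transcript length in the other members' values was not tested beyond these offsets.

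Nuclear and mitochondrial RNA also moved with the groups. The summed level of the nuclear long RNAs Malat1, Neat1 and Kcnq1ot1 was 432 to 822 CPM in P28 WT, 84.0 to 154 after induction at E10.5, and 129 to 185 after induction at P0. The RLT libraries had 105 to 551 CPM. The mitochondrial transcripts mt-Co1, mt-Nd1 and mt-Cytb summed to 6857 to 10178 CPM in P28 WT against 2354 to 3299 and 2859 to 3236 in the same ME groups. All 6 genes of this list were detected in every group. Within the RLT group, library 1 had the lowest nuclear sum (105 CPM) and the highest Ash2l (160 CPM) and Wdr5 (141 CPM), and library 4 had the highest nuclear sum (551 CPM) and the lowest Kmt2c (17.1 CPM), Paxip1 (23.5 CPM) and Ash2l (96.5 CPM). Library 4 also had the highest Ncoa6 (42.7 CPM), Kmt2d (47.8 CPM), Setd1a (7.98 CPM) and Setd1b (11.2 CPM) of the group, and the lowest Wdr5 was in library 3 (87.0 CPM). In P0 WT library 4 the nuclear sum was 1653 CPM. The part of RNA quality in the members' values was not tested.

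**Figure D5:**
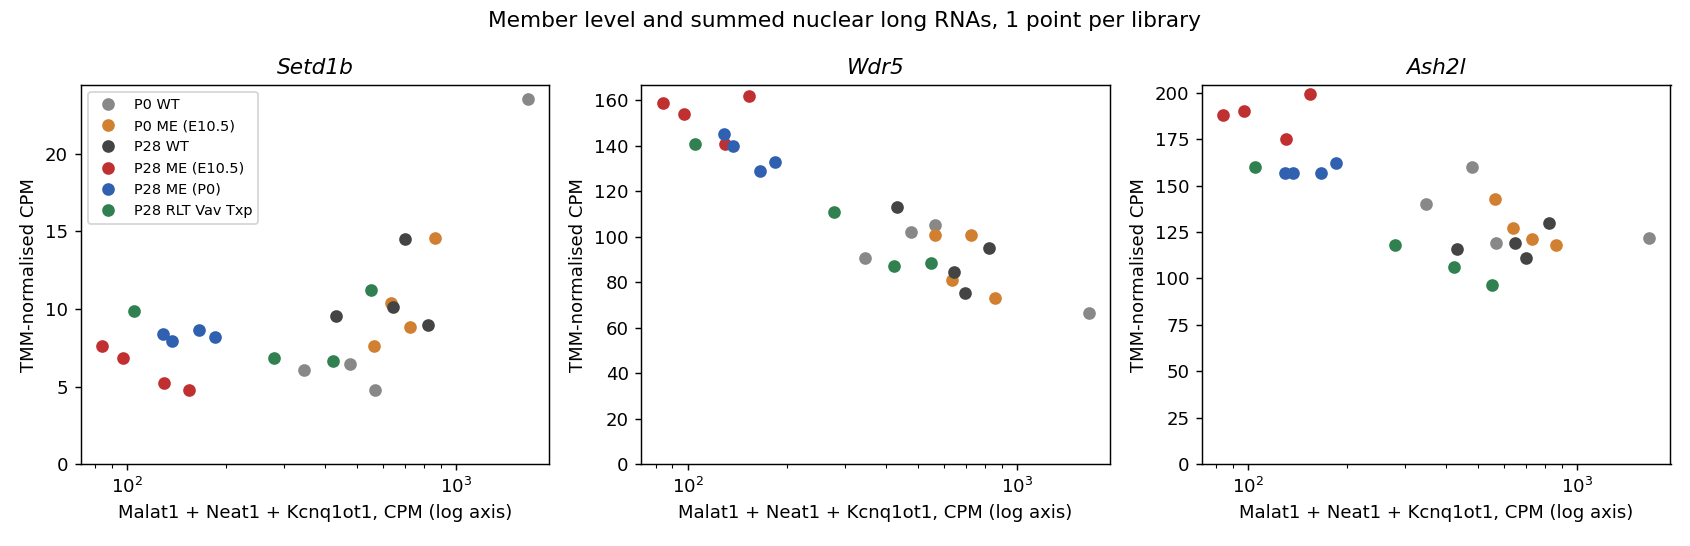
Summed CPM of Malat1, Neat1 and Kcnq1ot1 (x axis, log scale) against the TMM-normalised CPM of Setd1b, Wdr5 and Ash2l (y axes, from 0), 1 point per library coloured by group. Libraries with a low nuclear sum, which are those of E10.5-induced and P0-induced ME at P28 and RLT library 1, have the higher Wdr5 values, and the P0 WT library at 1653 has the highest Setd1b.

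Other subunits of the same complexes were read from a list of 14 genes, of which 13 were tested; Pagr1a had too few counts. In E10.5-induced ME against P28 WT 5 of the 13 were higher and 0 lower. They included Hcfc1, a partner of the SETD1 and MLL complexes (1.17, edgeR adjusted p = 0.0127), Men1, which encodes the menin that tethers KMT2A (0.75, edgeR adjusted p = 0.00543), Cxxc1, the CpG-binding subunit of the SETD1 complexes (0.72, edgeR adjusted p = 0.0233), and Rbbp5 of the shared core (0.69, edgeR adjusted p = 0.0166). The list's median log2 fold change was 0.44, against -0.10 for all genes and 0.49 for genes with long transcripts. In this comparison 7.82% of the genes tested and 29.9% of genes with long transcripts were called higher. In P0-induced ME 1 of 13 was higher, Kmt2a (1.23, edgeR adjusted p = 0.000873), with a list median of 0.37. There 1.57% of the genes tested were called, and genes with long transcripts had a median of 0.41, with 2.39% called higher. In the RLT group against E10.5-induced ME 6 were lower and 1 was higher, Dpy30 of the shared core (0.86, edgeR adjusted p = 0.0359). That comparison called 9.38% of the genes tested and 30.4% of genes with long transcripts lower.

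The core subunits outside the members thus went in unlike directions in that comparison, since Rbbp5 was lower (-0.74, edgeR adjusted p = 0.00799). Men1 fell by 0.97 (edgeR adjusted p = 0.000343) and Hcfc1 by 1.12 (edgeR adjusted p = 0.0122). With age in WT, 2 of 13 were higher, Rbbp5 (0.72, edgeR adjusted p = 0.0169) and Kmt2a (0.61, edgeR adjusted p = 0.0297), where 3.12% of the genes tested were called higher. With age in ME 5 were higher, led by Rbbp5 (1.11, edgeR adjusted p = 0.000253) and Cxxc1 (1.07, edgeR adjusted p = 0.000881), and Kmt2a was lower (-0.70, edgeR adjusted p = 0.00635). There 9.79% of the genes tested and 24.4% of genes with long transcripts were called higher. In the interaction Kmt2a was called lower (-1.31, edgeR adjusted p = 0.017) and Psip1, the chromatin tether of menin and KMT2A, was called higher (0.88, edgeR adjusted p = 0.0407). The interaction called 0.720% of the genes tested. In the ME groups, reads of mouse Kmt2a and of the transgene cannot be told apart.

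Genes that act on the same mark or beside it were read from 3 further lists. Of 8 demethylases of this lysine and their corepressors, 5 were higher in E10.5-induced ME than in WT and 0 were lower. Among the called genes were the demethylase genes Kdm5c (1.39, edgeR adjusted p = 0.0243) and Kdm5b (0.78, edgeR adjusted p = 0.0249) and the corepressor gene Rcor1 (0.87, edgeR adjusted p = 0.00683), and the list median was 0.73. In the same comparison 7.82% of all genes and 29.9% of genes with long transcripts were called higher. Of 7 other methyltransferases of active chromatin 2 were higher, Nsd2 (1.12, edgeR adjusted p = 0.0115) and Setd2 (0.97, edgeR adjusted p = 0.00863). Of 8 enhancer acetyltransferases and readers 2 were higher, Ep300 (0.96, edgeR adjusted p = 0.00863) and Kat6a (0.66, edgeR adjusted p = 0.0482).

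Against E10.5-induced ME the RLT group had 3 of 8, 4 of 7 and 6 of 8 genes of these lists lower and 0 higher, where 9.38% of all genes and 30.4% of genes with long transcripts were called lower. The acetyltransferase genes Ep300 (-0.95, edgeR adjusted p = 0.0063) and Kat2a (-0.90, edgeR adjusted p = 0.00651) were among them. List medians were -0.82, -0.60 and -0.74, against 0.12 for all genes and -0.48 for genes with long transcripts. Against WT, the RLT group had 1 of these 23 genes called, Crebbp (-0.82, edgeR adjusted p = 0.017), where 4.12% of the genes tested were called. The same lists held 0 called genes in ME against WT at P0 by edgeR, where 0.642% of the genes tested were called, with medians of 0.27, 0.24 and 0.15.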

How the data were processed

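Raw read counts per gene for 24 libraries of sorted mouse progenitors were deposited by the authors. Per the labels' protocols, RNA was isolated with RNeasy Plus and amplified with SMARTer, and the submitters' processing notes name STAR 2.7.9a, Subread, featureCounts 2.0.3 and GRCm38. Strand setting, treatment of reads with several hits and annotation release are not given in the sources used here. Of 55774 rows, 287 repeats of 168 identifiers were dropped, which left 55487 genes, 55227 of them matched to GENCODE M21 for positions and lengths. Every column was matched to a sample by name.

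Genes were filtered with filterByExpr (minimum count 10), scaled by TMM and tested with edgeR 4.0.16 (robust quasi-likelihood F-test, R 4.3.3) with 1 mean per group, 18 residual degrees of freedom and Benjamini-Hochberg adjustment over 23059 genes. Levels are TMM-scaled CPM computed from the deposited counts, and 1 CPM equals 31.2 reads in the smallest library. Intervals are 95% intervals from the model. Alternatives were RLE scaling, plain library totals, DESeq2 1.42.0, limma 3.58.1 (voom with quality weights), other filters, fits of the groups compared, offsets for GC content and transcript length, a replicate block and leaving out libraries. The members and all lists were chosen with earlier results of these data known. Besides the 10 members, genes of 4 pathway lists (other COMPASS subunits, demethylases, other methyltransferases, acetyltransferases and readers) are named only when called, at most 4 per list and comparison by size of change, with Kmt2a and Kit as checks. Marker lists covered LSK, macrophage, mast, erythroid, hepatocyte, neutrophil and B lymphoid cells, and RNA quality. Figures used Python 3.11.15 with pandas 2.3.3 and matplotlib 3.10.9. No source used here says whether libraries with the same replicate number share a litter or day, so pairing is unknown, and numbers in the RLT group were given in accession order.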

Additional observations from a re-analysis of the deposited data

Results flagged for a closer look

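In each of these groups of 4 libraries, 1 value lay far from the other 3, by a gap test at the 95% level over 66 groups. Chance gives about 1 in 20 groups. Of the 6 such values, 3 came from P0 WT library 4: Setd1a was highest at 29.5 CPM (the others 5.55 to 8.09), Setd1b highest at 23.5 CPM (4.77 to 6.48) and Paxip1 lowest at 7.23 CPM (71.6 to 75.7). In P28 WT, Kmt2c was lowest in library 2 at 24.4 CPM (33.2 to 34.6). In the RLT group, Kmt2b was highest in library 1 at 17.2 CPM (12.0 to 12.8). In P0-induced ME, Ash2l was highest in library 3 at 162 CPM, where the other 3 libraries were all at 157 CPM.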

How the results depend on the processing

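Of the 13 called pairs of a member and a comparison, 4 were kept in every alternative and every fit without 1 library: the 3 calls of Ash2l and that of Wdr5 with age in ME. Offsets for GC content and length ended 6 of the 13, and the cause was not tested. Each member had at least 176 counts in each library, so that depth limits little here.

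The number of members called moved by over 1.5 times as follows. For P0 ME against P0 WT it was 1 with plain library totals (0.529% of all genes) and 2 with DESeq2 (3.49%), from 0 (0.642%). For E10.5-induced ME against WT it was 6, from 3, with limma voom, with only these groups fitted, without P0 WT library 4 and RLT library 4 together, and with the 16 P28 libraries alone. The share of all genes called moved too, from 12.3% to 28.2%, 34.0%, 17.6% and 27.9% in these fits. For P0-induced ME against WT it was 1 with DESeq2, 4 with limma voom, 5 with only these groups, 3 without those 2 libraries and 3 with the 16 P28 libraries, from 0, while all genes went from 1.57% to 7.71%, 21.7%, 27.9%, 9.38% and 18.9%. Between the induction times it was 2 with limma voom (10.1% of all genes) and 1 with only these groups (6.35%), from 0 (0.0477%). For the RLT group against E10.5-induced ME it was 7 with limma voom (35.2% of all genes), 1 without a filter (7.02%) and 6 with the 16 P28 libraries (34.0%), from 3 (17.9%). Against P0-induced ME it was 5 with plain totals (12.8% of all genes), DESeq2 (17.0%) or the 16 P28 libraries (28.5%), 7 with limma voom (32.2%), 1 without a filter (4.48%) and 1 with the offsets (8.58%), from 3 (11.7%). With age in WT it was 0 with limma voom (5.68%) or only these groups (2.5%), and 1 without a filter (3.02%), with the offsets (10.1%) or without the P0 libraries numbered 1 (11.7%), from 2 (7.68%). With age in ME it was 4 with only these groups (26.8%) and 5 without P0 WT library 4 and RLT library 4 (24.1%), from 2 (18.2%). For the interaction it was 1 with DESeq2 (3.36%) or the offsets (1.89%), 2 with limma voom (2.82%) and 5 without those libraries (7.30%), from 0 (0.720%). These last 2 fits, without the pair of libraries and with the P28 libraries alone, were chosen after seeing the data.

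Leaving out 1 library gave 1 to 2 members for E10.5-induced ME against WT, 0 to 1 for P0-induced ME against WT, 1 to 6 and 0 to 5 for the RLT group against E10.5-induced and P0-induced ME, 0 to 1 with age in WT, 2 to 3 with age in ME and 0 to 4 for the interaction. The number of all genes called moved too, from 893 to 2723 for E10.5-induced ME against WT and from 7 to 649 for P0-induced ME. It ran from 2061 to 5212 and from 1288 to 3981 for the RLT group against E10.5-induced and P0-induced ME. The ranges were 1137 to 2473 with age in WT, 2687 to 4735 with age in ME and 11 to 1653 for the interaction.

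Signs changed only for values that were not called. With the offsets Kmt2d was -0.06 in P0 ME, -0.35 in P0-induced ME against WT, 0.32 in the RLT group against P0-induced ME and -0.23 with age in ME. Kmt2b was 0.16 and Kmt2e 0.02 in the RLT group against E10.5-induced ME, and Kmt2c was -0.02 and -0.07 with age in WT and ME. The Kmt2c interaction was -0.05 with the offsets, -0.01 with RLE or DESeq2, -0.11 with plain totals and -0.06 with limma voom. Without P0 WT library 4 and RLT library 4, Kmt2c was -0.08 and Setd1a 0.12 with age in WT. Without 1 library, ranges crossed 0 for Kmt2d in P0-induced ME against WT (-0.04 to 0.17) and with age in ME (-0.03 to 0.26), for Kmt2c with age in WT (-0.10 to 0.20), in ME (-0.07 to 0.28) and in the interaction (-0.11 to 0.26), and for Setd1a with age in WT (-1.03 to 0.09).

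With the replicate block, fitted to the 20 libraries whose labels carry numbers, 2 members were called for P0-induced ME against WT and 1 for the interaction, the same counts as without the block in those libraries (2 and 1). Of all genes, 4.25% were called with the block and 3.61% without it for P0-induced ME against WT. For the interaction these shares were 1.49% and 1.64%. The members called for P0-induced ME were not the same. With the block they were Kmt2c (edgeR adjusted p = 0.0473) and Ash2l (0.0434), and without it Ncoa6 (0.0447) and Wdr5 (0.046), so the block changed all 4 of these calls. Of 40 pairs of libraries with the same number, 14 correlated above 0.1 (median 0.03), and 7 of 20 libraries correlated best with their own number. Across all genes, the number called ranged from 1565 to 6505 for E10.5-induced ME against WT (2827 as reported) and from 137 to 5196 for P0-induced ME (362) over the alternatives. Scaling moved the all-gene median in E10.5-induced ME against WT on the log2 scale from -0.10 (TMM) to -0.18 (RLE) and -0.23 (plain totals).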
